A study of Glycine max with 16 samples.

Results

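The SCAM genes encode the calmodulins of soybean, small proteins that sense calcium. They are followed here through the 14 probe sets of the array whose only annotated gene has a symbol or synonym beginning with SCAM-, out of 8677 probe sets with exactly 1 annotated gene and 61170 in all. These 14 probe sets stand for 5 of the 6029 genes named in this way: SCAM-1 with 2 probe sets, SCAM-2 with 5, SCAM-3 with 3, SCAM-4 with 2 and SCAM-5 with 2. The arrays, 16 in all, read leaf RNA of soybean (Glycine max) cultivar Williams 82, always from the first leaf that was fully expanded, with 4 replicates in each of 4 physiological states. All groups are of this 1 cultivar, and the labels name no transgene, mutation or chemical for any of them. The first state, called baseline, was the growth temperature of 22 °C. The second was the optimum temperature for photosynthesis, and the other two lay beyond it, where photosynthesis had lost 20% and 30% of its optimum rate. Warming went in steps of 2 °C each 10 min towards 42 °C, a full curve took 3 to 4 h, and a leaf was harvested once it had spent 20 to 30 min in its state. Temperature and time since the start of warming therefore cannot be told apart, and whether 1 plant gave leaves at several states is not given in the labels.

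Calmodulin binds calcium through paired EF-hand motifs. When the calcium level of a plant cell rises, as it does within minutes of heat, touch or attack by a pathogen, calcium-loaded calmodulin changes shape and switches target proteins on or off, among them kinases, transcription factors, calcium pumps and glutamate decarboxylase. In soybean SCAM-1, SCAM-2 and SCAM-3 encode conserved calmodulins that are nearly the same as those of other plants. SCAM-4 and SCAM-5 encode divergent forms known for rapid induction by pathogens. In Arabidopsis, calmodulin is known to take part in the heat shock response.

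Each value below is the MAS5 signal of a probe set on 1 array, a linear brightness with no unit, scaled so that every array has the same trimmed mean. The brightness of a probe set depends on its probes, so the order of 2 probe sets in signal is not an order of transcript level. In the naming of these arrays the ending _s_at marks a probe set whose probes are shared by several transcripts, and _x_at marks one with some probes that resemble other sequences. Of the 14 SCAM probe sets, 5 end in _s_at and 2 in _x_at. Each probe set is called here by its gene and a letter. SCAM-1 A is Gma.6101.1.S1_at and SCAM-1 B is GmaAffx.92868.1.S1_s_at. SCAM-2 A is Gma.2196.1.S1_s_at, B is Gma.2196.1.S1_x_at, C is GmaAffx.11956.1.A1_at, D is GmaAffx.11956.2.A1_s_at and E is GmaAffx.91756.1.S1_at. SCAM-3 A is Gma.1965.1.S1_at, B is Gma.1965.1.S1_x_at and C is GmaAffx.92984.1.S1_s_at. SCAM-4 A is Gma.17842.1.S1_s_at and B is Gma.3223.1.S1_at, while SCAM-5 A is Gma.40.1.S1_at and B is GmaAffx.74597.1.S1_at. Members of a gene family as alike as calmodulins can share probes, so the assignment of such a probe set to 1 gene is uncertain. How far each probe set reads other calmodulin transcripts was not tested. Of the 14 probe sets, 12 passed the filter on low signal (a mean log2 signal above the median of 6.08) and were tested. The 2 that did not pass are both probe sets of SCAM-5.

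SCAM-3 and SCAM-2 were called lower than baseline at both levels of inhibition. The calls were on 2 of the 3 probe sets of SCAM-3 and 3 of the 5 of SCAM-2. These are 5 of the 12 tested members at each level of inhibition, where 35.6% of all tested probe sets were called at 20% inhibition and 34.7% at 30% inhibition, so the count by itself does not set the SCAM genes apart. On the probe set SCAM-3 A the signal fell to 0.350 times baseline at 20% inhibition and 0.384 times baseline at 30% inhibition. No probe set of SCAM-1 or SCAM-4 passed the test in any comparison over all 16 arrays, and SCAM-5 lay at background. No tested SCAM probe set was called higher in any comparison over all arrays. At the photosynthetic optimum, no member passed the test either, though SCAM-3 A and SCAM-3 B already lay lower there against SCAM-3 C within arrays. Fewer cells with a transcript and less transcript per cell cannot be told apart in whole leaf tissue.

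**Figure D1:**
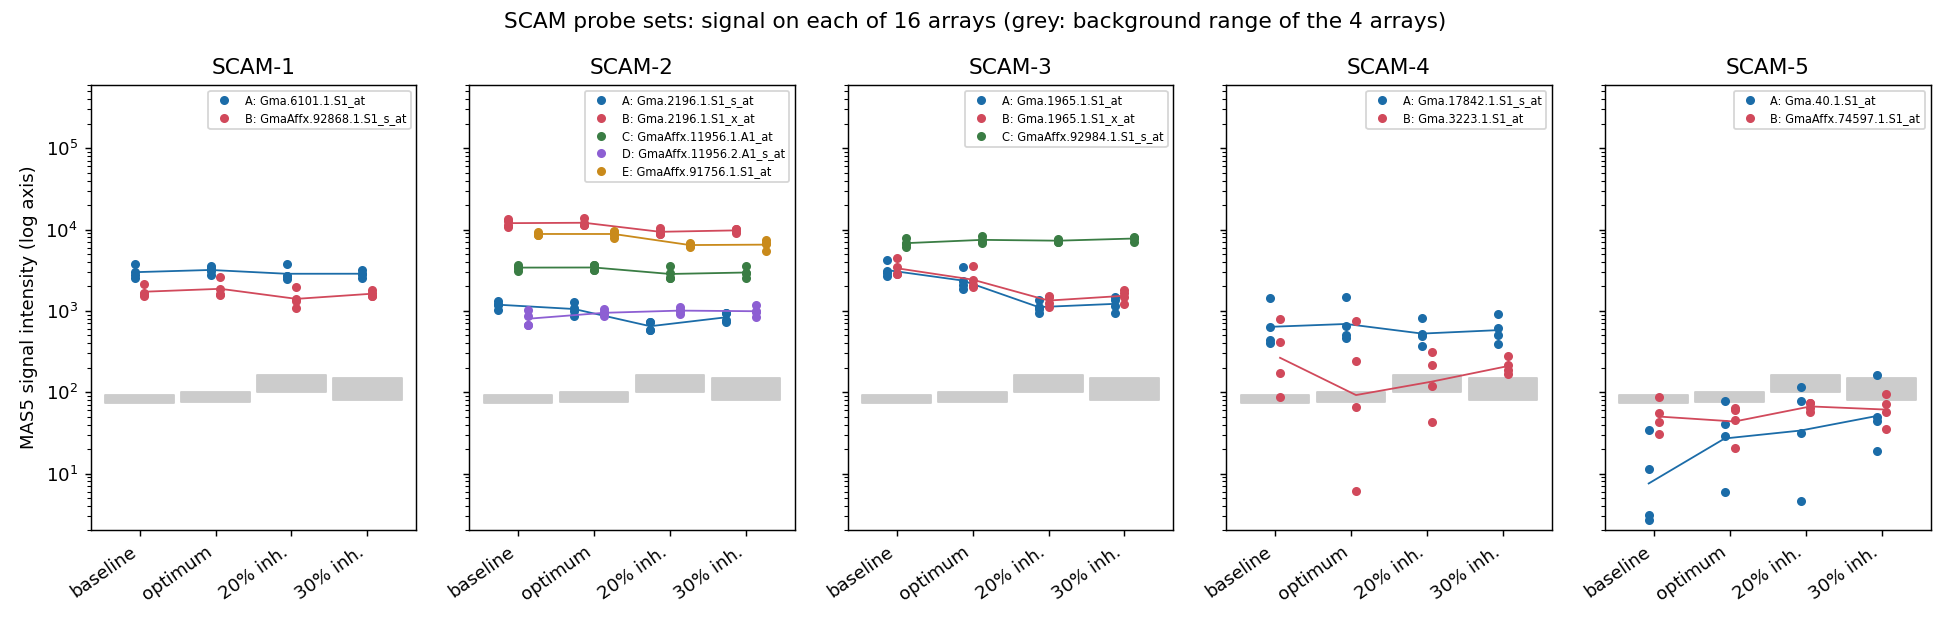
Signal of each SCAM probe set on each array (log axis), by gene and by state in the order of warming. Points are the 4 arrays of a state, lines join the means of the log2 values, and grey bands span the background levels of those 4 arrays. SCAM-3 A and SCAM-3 B drop at 20% and 30% inhibition, SCAM-3 C stays level, and SCAM-5 lies mostly within or under the grey bands.

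SCAM-3 encodes a conserved calmodulin. Its probe set SCAM-3 A had signals of 3069, 2695, 2936 and 4180 at baseline, 3509, 2302, 2056 and 1865 at the optimum, 1063, 1365, 1131 and 933 at 20% inhibition, and 1486, 1368, 936 and 1160 at 30% inhibition. Every array at either level of inhibition lay below every array at baseline and at the optimum, and the optimum overlapped baseline through its replicate 1. The log2 change against baseline was -1.51 ± 0.20 at 20% inhibition (SE, limma adjusted p = 1.97e-05) and -1.38 ± 0.20 at 30% inhibition (adjusted p = 5.19e-05). Of all probe sets tested, 3.33% had a lower change at 20% inhibition and 4.12% at 30% inhibition. At 20% inhibition the signal also lay below that at the optimum, with a log2 change of -1.08 ± 0.20 (adjusted p = 0.00145).

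The change of this probe set at the optimum itself was -0.43 ± 0.20 against baseline and did not pass the test (limma adjusted p = 0.185, 95% interval -0.85 to -0.01). Optimum replicate 1 was the highest of its state, and without it the change was -0.62 and passed (adjusted p = 0.0366). Between 30% and 20% inhibition the difference was 0.13 ± 0.20, with an interval of -0.29 to 0.55, and the arrays of the 2 states overlapped.

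SCAM-3 B, the second SCAM-3 probe set, read 3452, 2870, 2848 and 4448 at baseline, 3606, 2394, 1940 and 2057 at the optimum, 1256, 1500, 1515 and 1124 at 20% inhibition, and 1826, 1678, 1231 and 1465 at 30% inhibition. The inhibited arrays again lay below all arrays of the other 2 states. Its log2 change against baseline was -1.32 ± 0.19 at 20% inhibition (limma adjusted p = 6.03e-05) and -1.13 ± 0.19 at 30% inhibition (adjusted p = 0.000281). These are signals of 0.400 and 0.458 times baseline. At the optimum its change was -0.47 ± 0.19 (adjusted p = 0.135), or -0.66 without optimum replicate 1 (adjusted p = 0.0227). The ID shared with the first probe set, apart from the ending, means that both stand for 1 target sequence, so they are not independent readings of SCAM-3.

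The brightest probe set assigned to SCAM-3, SCAM-3 C, did not follow them. Its signals were 6874, 6061, 6622 and 7781 at baseline, 8421, 7486, 6750 and 7302 at the optimum, 7343, 6990, 7751 and 7109 at 20% inhibition, and 8131, 7970, 7037 and 7941 at 30% inhibition. All states overlapped baseline, and the log2 changes against it were 0.13 ± 0.10 at the optimum (limma adjusted p = 0.424), 0.10 ± 0.10 at 20% inhibition (adjusted p = 0.453) and 0.19 ± 0.10 at 30% inhibition (adjusted p = 0.143). The interval at 20% inhibition, -0.10 to 0.30, holds no fall of the size that the other SCAM-3 probe sets showed.

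The difference between the probe sets of SCAM-3 was measured as a log2 ratio within each array. For SCAM-3 A over SCAM-3 C this ratio was -2.71 ± 0.25 at 20% inhibition, against -1.10 ± 0.14 at baseline (SD, n = 4 each), a difference of -1.61. At 30% inhibition it was -2.67 ± 0.21, a difference of -1.57 from baseline. The ratios at baseline and at either level of inhibition did not overlap (two-sided exact permutation p = 0.0286 each, the smallest that 4 against 4 arrays allow, and 0.061 adjusted over the 32 tests of this kind). For SCAM-3 B over SCAM-3 C the differences were -1.42 and -1.32. Both ratios were already lower at the optimum, where they were not tested. There SCAM-3 A over SCAM-3 C ran from -1.97 to -1.26, against -1.17 to -0.90 at baseline. SCAM-3 B over SCAM-3 C ran from -1.828 to -1.224, just clear of the -1.217 to -0.807 of baseline. The ratio of SCAM-3 A to SCAM-3 B, with 1 target between them, differed from baseline by -0.19 at 20% inhibition (exact permutation p = 0.0571, 0.0914 adjusted) and -0.25 at 30% inhibition (exact permutation p = 0.0286, 0.061 adjusted). What is recorded as a fall of SCAM-3 thus rests on 1 of its 2 target sequences.

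**Figure D2:**
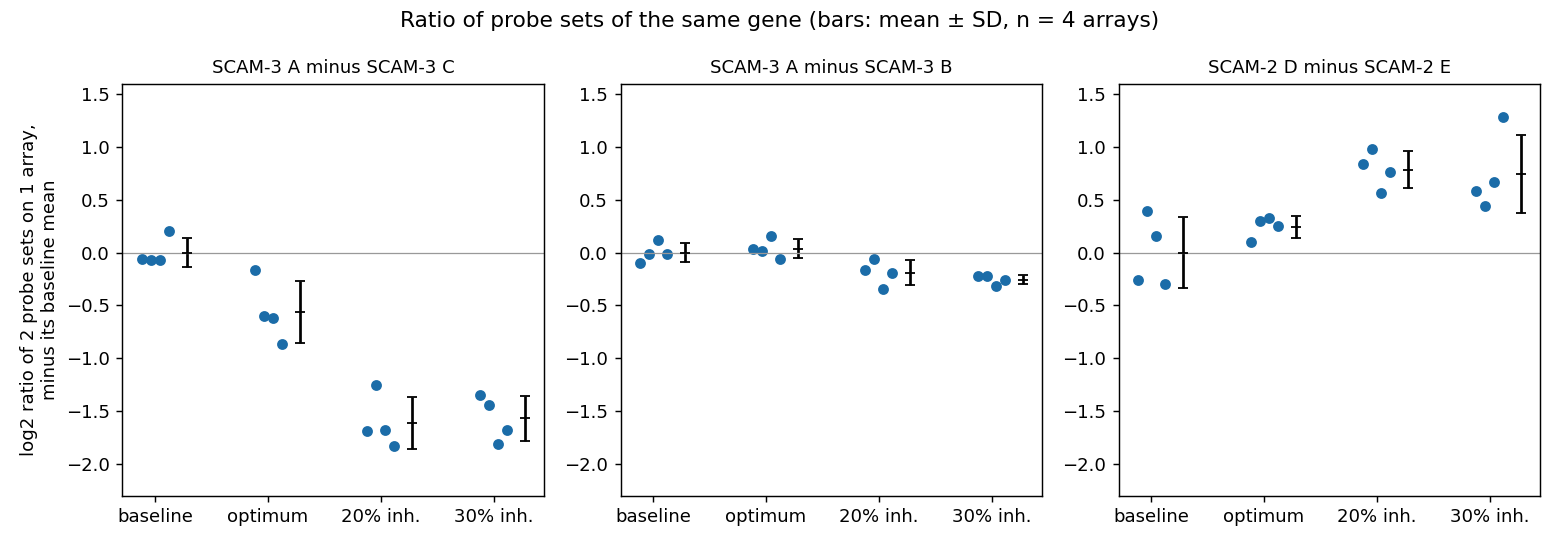
Log2 ratio of 2 probe sets of the same gene on 1 array, minus the mean of that ratio at baseline, by state. Points are arrays and bars are mean ± SD (n = 4). The ratio of SCAM-3 A to SCAM-3 C lies -1.61 from baseline at 20% inhibition and -1.57 at 30% inhibition, and all arrays of those states lie below the baseline arrays, while the ratio of SCAM-2 D to SCAM-2 E lies 0.79 and 0.74 above baseline. For SCAM-3 A to SCAM-3 C the optimum arrays also lie below the baseline arrays. The ratio of SCAM-3 A to SCAM-3 B lies -0.19 and -0.25 from baseline.

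SCAM-2 encodes another conserved calmodulin and has the most probe sets. On SCAM-2 A the signals were 1033, 1231, 1181 and 1336 at baseline, 1294, 1086, 1004 and 873 at the optimum, 733, 580, 574 and 719 at 20% inhibition, and 930, 769, 937 and 722 at 30% inhibition. The inhibited arrays lay below all baseline arrays, while the optimum overlapped both baseline and 30% inhibition. The log2 change was -0.88 ± 0.14 at 20% inhibition (limma adjusted p = 0.000164) and -0.51 ± 0.14 at 30% inhibition (adjusted p = 0.0107, but 0.0914 with array background in the fit). This is the member with the lowest unadjusted p between 30% and 20% inhibition (a difference of 0.37 ± 0.14, unadjusted p = 0.0215), where no probe set of the array passed after adjustment.

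SCAM-2 E, a SCAM-2 probe set with no shared-probe ending, gave 8910, 8512, 8656 and 9215 at baseline, 9670, 9315, 8467 and 7919 at the optimum, 6204, 6181, 6827 and 6590 at 20% inhibition, and 7359, 6873, 6623 and 5396 at 30% inhibition. Baseline and optimum overlapped, and every inhibited array lay below them. The log2 change was -0.45 ± 0.10 at 20% inhibition (limma adjusted p = 0.002) and -0.44 ± 0.10 at 30% inhibition (adjusted p = 0.00279), or 0.731 and 0.739 times baseline. Against the optimum, 20% inhibition differed by -0.45 ± 0.10 (adjusted p = 0.00546, but 0.0565 with array background in the fit). At the optimum the change from baseline was -0.00 ± 0.10, with an interval of -0.21 to 0.21.

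The brightest SCAM-2 probe set, SCAM-2 B, moved less. It read 10652, 11427, 12568 and 13470 at baseline, 13801, 12039, 11369 and 11405 at the optimum, 8906, 9460, 8902 and 10314 at 20% inhibition, and 9673, 10165, 10104 and 9149 at 30% inhibition. The inhibited states did not overlap baseline, but the highest array at 20% inhibition, at 10314, came close to the lowest baseline array, at 10652. The log2 change was -0.35 ± 0.10 at 20% inhibition (limma adjusted p = 0.00909) and -0.30 ± 0.10 at 30% inhibition (adjusted p = 0.0258). Of the 5 called probe sets, this one lost its call under the most alternatives. At 20% inhibition it was lost when array background entered the fit (adjusted p = 0.133) and, in an alternative added after seeing the data, without the 3 arrays of highest background (0.0758). At 30% inhibition it was lost when array background entered the fit (adjusted p = 0.131), with no filter on low signal (0.0762), without baseline replicate 3 (0.0691) or 4 (0.0799), and without replicate 1 (0.0511) or 4 (0.0713) of 30% inhibition.

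Of the 2 other SCAM-2 probe sets, SCAM-2 C spanned 3117 to 3715 at baseline, 3154 to 3678 at the optimum, 2517 to 3550 under 20% inhibition and 2527 to 3580 under 30% inhibition. Its log2 change at 20% inhibition, -0.26 ± 0.13, did not pass (limma adjusted p = 0.121), but without replicate 4 of that state it was -0.37 and passed (adjusted p = 0.0252). SCAM-2 D spanned 677 to 1017 at baseline, 854 to 1040 at the optimum, 916 to 1103 under 20% inhibition and 845 to 1189 under 30% inhibition. Its change at 20% inhibition was 0.33 ± 0.14 (adjusted p = 0.0802) and at 30% inhibition 0.31 ± 0.14 (adjusted p = 0.108), positive in both and overlapping baseline. Without baseline replicate 2, its highest baseline array, both passed, at 0.45 (adjusted p = 0.0196) and 0.42 (adjusted p = 0.0271). Within arrays, the log2 ratio of SCAM-2 D to SCAM-2 E differed from baseline by 0.79 at 20% inhibition and 0.74 at 30% inhibition, with no overlap (exact permutation p = 0.0286 each, 0.061 adjusted). Over all 32 tests of ratios within a gene, 0 passed after adjustment and 15 had the smallest p that 4 against 4 arrays allow. With that floor, most of the 32 would have had to reach it for any to pass. How often ratios of 2 probe sets of other genes do not overlap was not counted, so the 15 do not set the SCAM genes apart. Of all tested single probe sets, 32.4% did not overlap baseline at 20% inhibition and 34.8% at 30% inhibition.

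**Figure D3:**
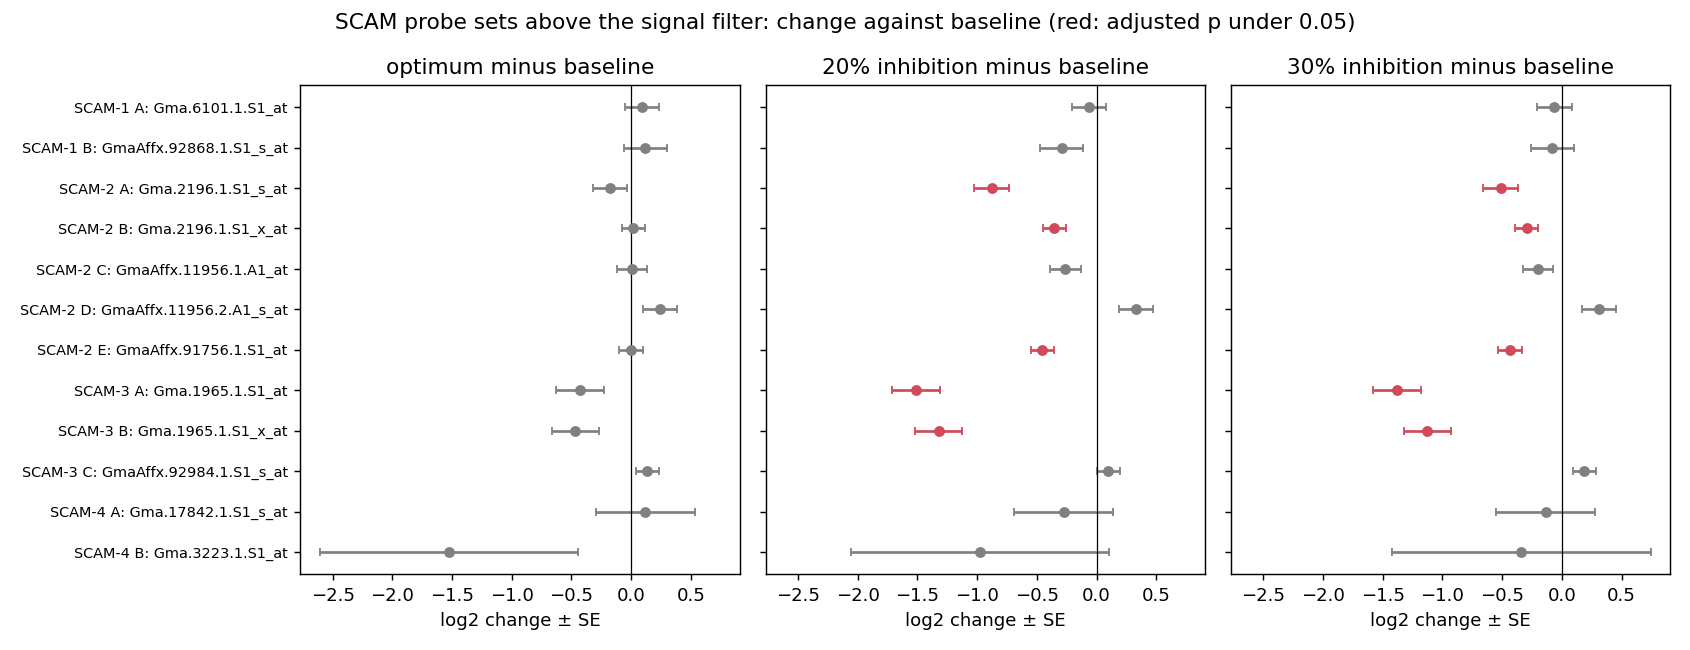
Log2 change of the 12 tested SCAM probe sets against baseline at the optimum, 20% inhibition and 30% inhibition. Points are limma estimates, bars are ± SE, and red marks an adjusted p under 0.05. The 5 red points at each level of inhibition belong to SCAM-2 and SCAM-3 and lie below 0, and no point is red at the optimum.

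SCAM-1, the third conserved calmodulin gene, did not pass the test in any comparison over all arrays. SCAM-1 A read 3005, 2535, 2757 and 3804 at baseline, 3548, 3409, 2779 and 3055 at the optimum, 2701, 2683, 3756 and 2452 at 20% inhibition, and 2569, 2880, 3151 and 2877 at 30% inhibition. The arrays of the 4 states overlapped throughout. Its log2 change was -0.06 ± 0.14 both at 20% inhibition (limma adjusted p = 0.761, interval -0.37 to 0.24) and at 30% inhibition (adjusted p = 0.774, interval -0.37 to 0.24). SCAM-1 B spanned 1544 to 2115 at baseline, 1552 to 2603 at the optimum, 1090 to 1966 under 20% inhibition and 1526 to 1814 under 30% inhibition. Its change was -0.29 ± 0.18 at 20% inhibition (adjusted p = 0.225, interval -0.67 to 0.09), or -0.45 without replicate 3 of that state, when it passed (adjusted p = 0.047). A fall of the size seen on the probe set SCAM-2 E lies within the interval.

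SCAM-4, a divergent calmodulin gene, varied widely among replicates of the same state. On SCAM-4 A the arrays gave 634, 407, 441 and 1440 at baseline, 1494, 654, 464 and 500 at the optimum, 490, 514, 809 and 375 at 20% inhibition, and 924, 618, 504 and 391 at 30% inhibition. Baseline replicate 4 was 3.54 times the lowest array of its state, and optimum replicate 1 was 3.22 times the lowest of its own. The log2 changes, 0.12 ± 0.41 at the optimum, -0.28 ± 0.41 under 20% inhibition and -0.14 ± 0.41 under 30% inhibition, were smaller than their standard errors. The interval at 20% inhibition ran from -1.15 to 0.60, so neither a fall of more than 1 log2 unit nor a rise is outside it.

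The same 2 arrays were high on the other SCAM-4 probe set, SCAM-4 B, which read 409, 88.2, 174 and 785 at baseline and 743, 239, 66.6 and 6.10 at the optimum. At 20% inhibition it read 215, 118, 308 and 42.5, and at 30% inhibition 283, 187, 218 and 167. It was below the background level on 4 of the 16 arrays, 2 at the optimum and 2 at 20% inhibition. Its changes had standard errors of 1.08 and did not pass (adjusted p = 0.520 at 20% inhibition and 0.841 at 30% inhibition).

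High values on these 2 arrays were seen on probe sets of other SCAM genes too. Of the 12 tested probe sets, 11 were highest at baseline in replicate 4, and 10 were highest at the optimum in replicate 1. In the inhibited states 7 of the 12 were highest in replicate 3 at 20% inhibition and 7 in replicate 1 at 30% inhibition. The same was not counted over all tested probe sets, so these counts do not set the SCAM genes apart. Replicate 3 at 20% inhibition was also the array with the highest background level of the 16, at 163. The other arrays named here had low levels. Baseline replicate 4 had the lowest of the 16, at 74.5, optimum replicate 1 had 76.5, and replicate 1 at 30% inhibition had 80.1. Several of these probe sets share a target or probes and all share the array, so they are not separate observations of a leaf.

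SCAM-5, the second divergent calmodulin, was not measurable above background. SCAM-5 A was below the background level on 15 of 16 arrays, ranging over 2.65 to 34.3 at baseline, 5.85 to 77.4 at the optimum, 4.56 to 115 under 20% inhibition and 19.0 to 161 under 30% inhibition. The 1 array above background was replicate 3 at 30% inhibition. SCAM-5 B was below background on all 16 arrays, at 30.8 to 88.4 at baseline, 20.3 to 63.6 at the optimum, 57.2 to 74.5 under 20% inhibition and 35.6 to 96.0 under 30% inhibition. No fold change is given for SCAM-5, since both sides of every comparison lie at or near background.

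Over the 12 tested members, the optimum against baseline gave 0 calls by limma, where 12.9% of all 30517 tested probe sets were called, and 2 had an unadjusted p under 0.05. At 20% inhibition 5 of 12 passed, all lower, against 35.6% of all tested probe sets in either direction and 18.6% lower. At 30% inhibition 5 of 12 passed, all lower, against 34.7% in either direction and 17.7% lower. At 20% inhibition against the optimum 5 of 12 passed, all lower, against 16.6% in either direction and 8.7% lower. With array background as a covariate only 1 of these 5 calls remained in that comparison, that of SCAM-3 A. Between 30% and 20% inhibition 0 passed, as for 0% of all tested probe sets, and 1 SCAM probe set had an unadjusted p under 0.05. The moderated F-test for any difference among the states called 5 of 12, against 35.5% of all. These 5 probe sets come from 2 genes and 3 target sequences, so a count of 5 overstates the number of separate readings. The share called at 20% and 30% inhibition in either direction was close to that of all tested probe sets.

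The same 5 probe sets were those without overlap between states, where 32.4% of all tested probe sets did not overlap at 20% inhibition against baseline, 34.8% at 30% inhibition against baseline and 20.6% at 20% inhibition against the optimum. The median log2 change of all 14 members was 0.01 at the optimum, -0.28 under 20% inhibition and -0.17 under 30% inhibition, beside medians of -0.000285, -0.00974 and -0.0082 over all tested probe sets. The median of the members includes the 2 SCAM-5 probe sets at background, which were not tested, and at 30% inhibition it was 0.03 without baseline replicate 4. The comparisons against baseline share the 4 baseline arrays and are not separate evidence of a fall.

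Whether the SCAM genes responded differently was tested on the log2 ratio of 2 genes within an array, each gene by its brightest probe set. Over 10 gene pairs and 2 levels of inhibition, 0 of 20 tests passed after adjustment by the exact permutation test, and 2 had an unadjusted p under 0.05. The smallest p that 4 against 4 arrays allow is 0.0286, so most of the 20 tests would have had to reach it for any to pass, and the tests against SCAM-5 rest on signals at background. The lack of passing tests therefore does not show that the genes responded alike. Both small values were of SCAM-2 against SCAM-3, where the ratio differed from baseline by -0.45 at 20% inhibition and -0.48 at 30% inhibition without overlap (exact permutation p = 0.0286 each, adjusted p = 0.286). SCAM-3 entered this test through SCAM-3 C, the probe set that did not fall.

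The background level was 81.8 ± 7.0 at baseline, 86.2 ± 11.9 at the optimum, and then 125 ± 28.1 under 20% inhibition and 112 ± 30.8 under 30% inhibition (SD, n = 4). With this level as a covariate the SCAM-3 change on SCAM-3 A was -1.29 at 20% inhibition (limma adjusted p = 0.00198) and -1.22 at 30% inhibition (adjusted p = 0.000937), and that of the probe set SCAM-2 E was -0.43 (adjusted p = 0.0323) and -0.42 (adjusted p = 0.017). The 3′ over 5′ log2 signal of the GlutTrans control, a measure of how intact or complete the labelled RNA was, averaged 0.07 ± 0.25 at baseline, 0.80 ± 0.16 at the optimum, 0.89 ± 0.16 under 20% inhibition and 0.83 ± 0.13 under 30% inhibition. The other two controls of this kind varied widely and did not follow that order: ubiquitin averaged 1.76 ± 1.20, 2.21 ± 1.29, 2.07 ± 0.95 and 1.1 ± 1.61 in the same order of states, and SucBP 2.60 ± 1.21, 3.56 ± 1.65, 2.58 ± 2.73 and 1.78 ± 0.75. The part of RNA quality in the SCAM changes was not tested. Markers of leaf tissue were present, as 14 or 15 of 17 leaf probe sets lay above background on all arrays of a state, led by the chlorophyll a/b binding protein gene CAB3, while 3 of 16 seed and 2 of 6 nodule or root probe sets did. The summed signal of the nodule or root probe sets, most of it that of NOD33, was 1639 to 2517 at baseline, 3198 to 5015 at the optimum, 5645 to 9138 under 20% inhibition and 6350 to 10516 under 30% inhibition, and that of the seed probe sets, led by KTI-3, was 23557 to 35091, 19422 to 39383, 16841 to 25561 and 13293 to 28123 in the same order. Their part in the SCAM changes was not tested either.

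Genes that act with calmodulin were described by lists picked from symbols. The calcium-dependent protein kinases, which carry their own calmodulin-like domain, had 3 probe sets of 3 genes, and 0 passed in any comparison by limma, nor did any have an unadjusted p under 0.05. Their median log2 change was 0.06 at the optimum, 0.19 under 20% inhibition and 0.20 under 30% inhibition. Their changes at 30% inhibition were 0.11 ± 0.16 for CDPK, 0.20 ± 0.39 for CDPK-BETA and 0.27 ± 0.30 for CDPK-GAMMA. No single-gene probe set matched calcineurin B-like proteins and their kinases or calmodulin-like proteins outside SCAM.

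The calcium pumps SCA1 and SCA2 had 5 probe sets, of which 4 were tested. None was called higher in these states. At the optimum and under 20% inhibition 1 each was called lower, and under 30% inhibition 2 were, where 12.9% of all tested probe sets were called in either direction at the optimum and 18.6% and 17.7% lower at 20% and 30% inhibition. The list's median log2 change was -0.34 at the optimum, -0.54 under 20% inhibition and -0.55 under 30% inhibition. SCA1 read 1568, 2666, 1653 and 1898 at baseline, 880, 1121, 1050 and 1066 at the optimum, 1178, 1314, 1780 and 1301 at 20% inhibition, and 1273, 1545, 1164 and 935 at 30% inhibition. All optimum arrays and all arrays at 30% inhibition lay below baseline. SCA1 fell by 0.89 on the log2 scale at the optimum (SE 0.18, limma adjusted p = 0.00373), a state at which no SCAM member passed the test, and by 0.65 at 30% inhibition (SE 0.18, adjusted p = 0.0101), while its change at 20% inhibition was -0.47 ± 0.18 (adjusted p = 0.055). Of the 3 tested SCA2 probe sets 1 passed, with a change of -0.60 ± 0.14 at 20% inhibition (adjusted p = 0.00363) and -0.43 ± 0.14 at 30% inhibition (adjusted p = 0.0291). The other two had changes of -0.62 ± 0.25 and -0.48 ± 0.20 at 30% inhibition (adjusted p = 0.0646 and 0.0672).

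A list of calmodulin-binding or calcium-storing proteins held 5 probe sets of 3 genes, 4 of them tested. At the optimum 2 were called higher, where 12.9% of all tested probe sets were called in either direction and 2023 of 30517 were called higher. These 2 calls were lost under 9 of 27 alternatives for LOC547724 and 15 of 27 for ANN11. At each level of inhibition 1 was called higher and 1 lower, where 35.6% and 34.7% of all were called. The median change of the list was 0.63 at the optimum, 0.19 under 20% inhibition and 0.33 under 30% inhibition. Glutamate decarboxylase, which makes the amino acid GABA and is switched on by calmodulin, is represented by LOC547724 and LOC100796533, both with the synonym GAD. LOC547724 read 6921, 8772, 8436 and 6152 at baseline, 10202, 10163, 11473 and 9879 at the optimum, 16711, 15744, 12215 and 18830 at 20% inhibition, and 16723, 14676, 12602 and 17183 at 30% inhibition. Every warmer array lay above every baseline array, and the 2 inhibited states lay above the optimum. The log2 change was 1.07 ± 0.14 at 20% inhibition (limma adjusted p = 2.63e-05) and 1.02 ± 0.14 at 30% inhibition (adjusted p = 4.37e-05), in the opposite direction to the SCAM-2 and SCAM-3 calls. At the optimum it was 0.47 ± 0.14 (adjusted p = 0.039, but up to 0.111 when 1 array was left out). LOC100796533 read 5134, 4422, 4793 and 5025 at baseline, 5407, 4657, 4820 and 4121 at the optimum, 3216, 3437, 3267 and 3914 at 20% inhibition, and 4192, 4244, 3309 and 2736 at 30% inhibition. Its inhibited arrays lay below all baseline arrays, and its change was -0.49 ± 0.13 at 20% inhibition (adjusted p = 0.00858) and -0.44 ± 0.13 at 30% inhibition (adjusted p = 0.0161). The calls of LOC100796533 and SCA2 were lost with array background as a covariate, and those of LOC547724 at both levels of inhibition were not. With 1 array left out, the adjusted p at 30% inhibition reached 0.0602 for LOC100796533 and 0.0800 for SCA2.

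Annexin genes encode calcium-dependent membrane-binding proteins. The brightest of 3 probe sets of ANN11 read 769, 462, 785 and 1034 at baseline, 1493, 1274, 1258 and 1063 at the optimum, 821, 837, 583 and 1268 at 20% inhibition, and 1048, 821, 1135 and 649 at 30% inhibition. It stood above baseline at the optimum alone, by 0.79 ± 0.25 on the log2 scale, at the edge of the threshold (limma adjusted p = 0.04997). This call was lost under 15 of 27 alternatives, with an adjusted p of up to 0.158 when 1 array was left out.

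**Figure D4:**
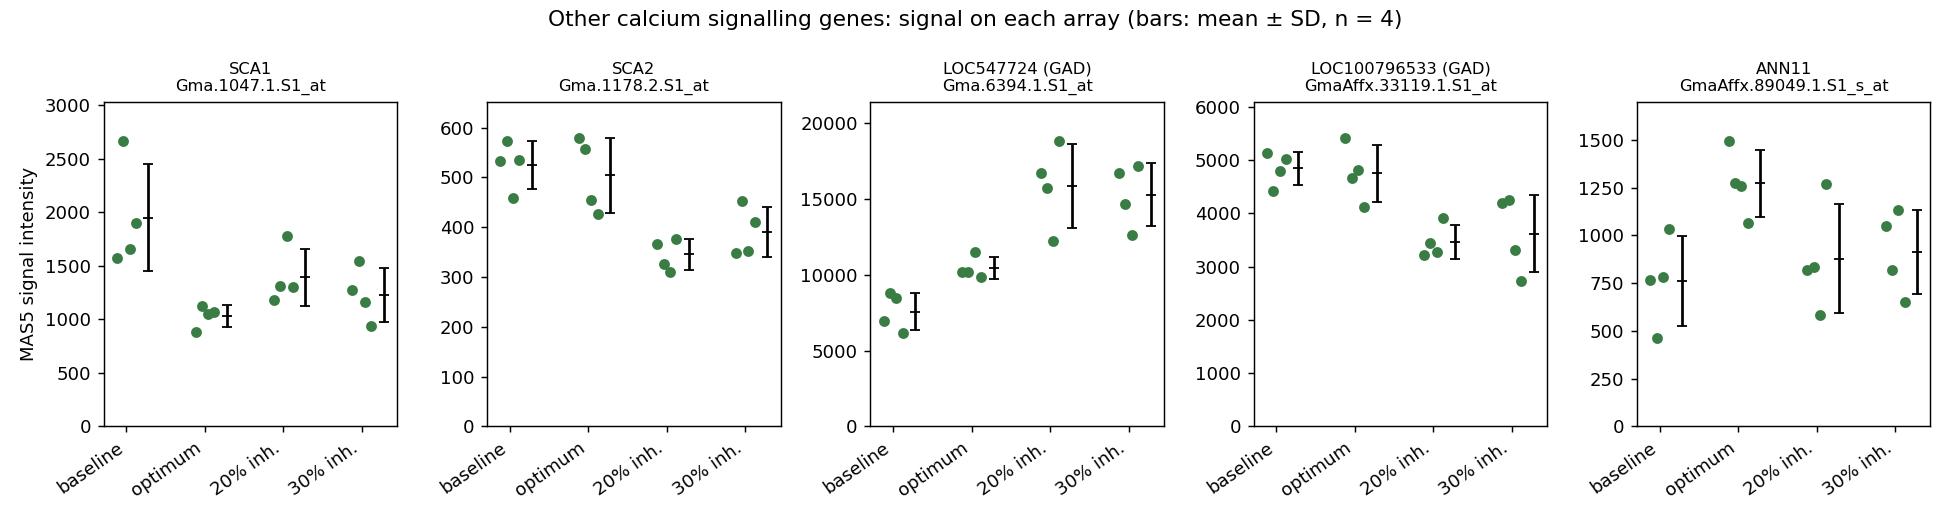
Signal of 5 probe sets of other calcium signalling genes on each array (linear axis from 0), by state. Each gene is shown by its tested probe set with the lowest limma adjusted p at 30% inhibition, or at the optimum for ANN11. The other tested SCA2 probe sets did not pass at 30% inhibition (limma adjusted p = 0.0646 and 0.0672). The CDPK genes, of which none was called, are not shown. Points are arrays and bars are mean ± SD (n = 4). LOC547724 (GAD) is higher in each warmer state than at baseline, and SCA1, SCA2 and LOC100796533 (GAD) are lower at 30% inhibition.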

How the data were processed

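Leaf RNA was hybridised to 16 arrays, 4 per physiological state. The authors deposited MAS5 signal intensities on a linear scale, as the submitters' processing notes name them. The sources used here do not give a version or settings. The mean of the values without the top and bottom 2% was 500.0 on every array, so they had been scaled to a common level, and a change of total messenger RNA cannot be seen.

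Log2 of each intensity was used as it stood, with nothing added and no second normalization. Leaving out 135 controls, 30517 of 61035 probe sets, those with a mean log2 signal above the median of 6.08 (a signal of 67.6), were fitted in limma 3.58.1 under R 4.3.3, with 1 mean per state over 16 arrays and the trend option for the variance. Benjamini-Hochberg adjustment ran over every tested probe set, at a threshold of 0.05. Ratios within an array were tested by two-sided exact permutation with SciPy 1.17.1, over 20 tests between genes and 32 within genes, the last added after values were seen. Background was the 95th percentile of the 23350 probe sets named PsAffx or HgAffx, taken not to target soybean. It sets no detection call, and detection p-values were not used here. The fit was tested on simulated data.

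Gene names come from the platform annotation, which can be old. All 5 SCAM symbols were found in a RefSeq gene table of the assembly Glycine_max_v4.0. No sequence or coordinate was used here. Every SCAM probe set is named. A gene is represented by its brightest probe set (mean log2 signal). From each calcium list the rule names the called member with the largest rise and the one with the largest fall at 30% inhibition. The other calcium genes were named after their values were seen. The likeness rule names the 3 genes nearest in their 4 state means. Members and lists were chosen with earlier results of these data known. Whether replicate numbers pair the arrays is not settled. The correlation of deviations from the state means was taken over 24 pairs of states with the same number. It ran from -0.278 to 0.217, with 7 over 0.1. Its median was 0.053, against -0.0018 for arrays of different number. Alternatives were another scaling, filters, constants, a background covariate, a replicate block and leaving out arrays. The labels speak of 4 plants and give each state 4 numbered replicates, but do not say whether the states share plants. Arrays were treated as independent, so p-values measure the spread between these arrays, and 4 arrays per state limit the precision.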

Additional observations from a re-analysis of the deposited data

Results flagged for a closer look

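In 1 of 56 groups of 4 arrays, a single array stood apart from the other 3 by Dixon's test at the 95% level, which chance gives in about 1 in 20 groups. It was replicate 3 at 30% inhibition on the probe set SCAM-3 C, the lowest of its state at 7037, with the nearest other array at 7941. The gap was 0.836 of the range of the state, above the critical value for 4 arrays. This probe set passed no test with or without that array.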

How the results depend on the processing

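Of 1615 recomputed values of single SCAM probe sets, 1588 stayed on the same side of the threshold. Another 17 called values no longer passed, and 10 passed that had not. Most of the 1615 belong to results not called in the main fit, and many leave out an array of neither state compared. The share of 1588 is therefore no measure of how firm the calls are. No called value changed sign, while 49 of the 1588, all uncalled, did. The 2 probe sets SCAM-3 A and SCAM-3 B and the probe set SCAM-2 E passed at 20% and 30% inhibition against baseline under every alternative. With array background as a covariate, 3 SCAM probe sets passed at 30% inhibition, where 8262 of all 30517 passed and 10579 had passed without it. At 20% inhibition against the optimum 1 SCAM probe set passed, where 2223 of all passed and 5059 had. By the F-test 3 SCAM probe sets passed, and that count was not taken over all probe sets. At 20% inhibition against baseline SCAM-2 B lost its call, and 7070 of all passed, where 10863 had. Without the 3 arrays of highest background, an alternative chosen after seeing the data, 3 SCAM probe sets passed at 20% inhibition against the optimum, and 2865 over all. The cause was not tested. Leaving out 1 array at a time gave 0 to 2 SCAM calls at the optimum (2 without optimum replicate 1). It gave 5 to 6 at 20% inhibition, 4 to 6 at 30% inhibition and 4 to 6 at 20% inhibition against the optimum. Between 30% and 20% inhibition it gave 0, and by the F-test 5. Over all 30517 tested probe sets these fits called 2735 to 4329, 9479 to 10978, 9102 to 11149, 3731 to 5494 and 0 in the same order of comparisons. Without optimum replicate 1 the count over all at the optimum was 3572. The median change of the 14 members then ran from -0.05 to 0.10, -0.39 to -0.21, -0.29 to 0.03, -0.44 to -0.24 and 0.06 to 0.15 in that order. Whether the replicate number is a true pairing is not settled. A fit with it as a block called 0, 5, 4, 5 and 0 SCAM probe sets and 5 by the F-test. Over all tested probe sets that fit called 3558, 10473, 10162, 4578 and 0. The 1 call lost with it at 30% inhibition was that of SCAM-2 B (adjusted p = 0.0503). Fewer arrays or a block leave permutation tests of ratios too few orderings to pass. Background limits SCAM-5 and part of SCAM-4, and shared probes limit what is said of 1 gene.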

Other observations

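Likeness in pattern was measured as the root mean square distance of 4 state means, each centred on its own mean, on the log2 scale among 399 genes with a product name that passed the F-test. Only SCAM-2 passed the F-test on its brightest probe set, SCAM-2 B. Nearest to it were AGL3L at a distance of 0.0436, LOC548082, with a glutamine synthetase synonym, at 0.056, and the glutamate decarboxylase LOC100796533 at 0.0606. The likeness rule takes the brightest probe set of a gene. SCAM-2 A, SCAM-2 E, SCAM-3 A and SCAM-3 B lie outside it and were looked at after their values were seen. LOC100796533 was also the nearest gene to SCAM-2 E, at 0.0156, followed by GAPDH at 0.0175 and AGL3L at 0.02. For SCAM-3 A the nearest were HIUHase at 0.0601, SSH2 at 0.0728 and CYP93E1, a saponin pathway oxidase, at 0.0812. SCAM-3 B, of the same target, had other neighbours, MGD1 at 0.0541, SABATH1 at 0.0563 and EXP2 at 0.0637. SCAM-2 A also shared none with SCAM-2 B or E, with LOC100526991 (synonym GSTZ2) at 0.0704, OAS-TL3 at 0.0757 and GND at 0.0786. The nearest genes thus changed with the probe set. A distance over 4 means from 16 arrays is a description of shape and carries no test.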
